A study of Mus musculus with 11 samples.

Results

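Macrophages are the main resident immune cells of the aortic wall, and 38 genes that mark them, their activated and lipid-laden states, or leukocytes in general are described here in RNA sequencing of mouse aorta. The genes were picked by symbol from the table of raw counts, as resident, inflammatory and foamy macrophage genes, with complement, MHC class II and chemokine genes left out. All 38 were found among the 27179 genes of that table, and all 38 were among the 14303 genes with enough counts to be tested. Aortas of 3 groups were compared. KO_HFD_LNAME holds 3 libraries from Mpst knockout mice (Mpst-/-), which lack the hydrogen sulfide-producing enzyme mercaptopyruvate sulfurtransferase, on a high-fat diet (HFD, 45% of calories from fat) with L-NAME, an inhibitor of nitric oxide synthases. WT_HFD_LNAME holds 4 libraries from wild-type mice on the same diet and inhibitor. WT_CD holds 4 libraries from wild-type mice on chow (CD, 10% of calories from fat) without the inhibitor. The strain is given as C57BL6/J for wild type, feeding began at 6 to 7 weeks of age, the diets ran for 15 weeks, and in both HFD groups 5 weeks with the inhibitor followed. The labels do not say in which cells Mpst was deleted or by what construct, whether the wild-type mice were littermates, or whether libraries came from different animals. P-values here therefore reflect the variation among these libraries, which may be technical. RNA came from the aorta from arch to abdomen, freed of surrounding fat.

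In the vessel wall most resident macrophages lie in the adventitia, where the scavenger receptors Lyve1, Mrc1, Cd163 and Folr2 mark a long-lived perivascular kind. Their survival depends on the receptor Csf1r and its ligands Csf1 and Il34, and the transcription factor PU.1, encoded by Spi1, switches on much of the macrophage programme. Macrophages that take up lipid in atherosclerotic lesions are known for Trem2, Gpnmb and Lgals3. Activating Fc receptors such as Fcgr1 and Fcgr3 signal through the adaptor Fcer1g, and Tyrobp is an adaptor of other receptors, Trem2 among them. Both adaptors carry the ITAM motif and recruit the kinase Syk.

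Library totals ran from 8665968 to 15340697 counts. Mpst had 3, 5 and 4 counts in KO_HFD_LNAME 1, 2 and 3, against 317 to 431 in WT_HFD_LNAME and 265 to 532 in WT_CD. The ribosomal precursor Rn45s took 10.1% and 17.4% of the counts of WT_CD 1 and 2, against 0.815% to 2.98% elsewhere. Cardiac muscle markers summed to 822 and 2193 CPM (counts scaled to a common sequencing depth, with TMM factors) in WT_HFD_LNAME 3 and 4, and to at most 126 CPM in the other libraries. Smooth muscle markers, which define the tissue, were the most abundant cell type list in all but 2 libraries, at 13648 to 32203 CPM; in WT_HFD_LNAME 3 and WT_CD 3 adipocyte markers reached 15342 and 13867 CPM.

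Promoters are shown for 4 of the members, as a view of the sequence beside the start site. RefSeq (GRCm38.p6) gave a window from 250 bases before to 50 bases after the gene start for 28 of the 38 members. Searched on both strands for GAGGAA, the core of the purine-rich box that PU.1 is known to bind, 17 of the 28 windows held a match (60.7%), against 7652 of all 27025 gene windows (28.3%). The longer word GAGGAAGT, which contains the core, was in 2 of the 28 (7.14%) and in 3.28% of all windows. Capitals mark GAGGAA, or TTCCTC where the match lies on the opposite strand. Laptm5 (lysosomal protein of leukocytes, chr4:130913066-130913365, plus strand) had 1 match, Ptprc (the leukocyte phosphatase CD45, chr1:138175256-138175555, minus strand) 1 and Vsig4 (a complement receptor of resident macrophages, chrX:96293389-96293688, minus strand) 2. Mpeg1 (the pore-forming protein perforin-2, chr19:12460520-12460819, plus strand) had 0 in this window. The start used for Laptm5 lies 426 bases, and that for Ptprc 451 bases, inside the outermost annotated start of the gene, and those of Vsig4 and Mpeg1 lie on it. Adam8 and Mpeg1 were the only members to pass the main test in the comparisons below. The window of Adam8, which is not shown, held 0 matches, and its start lies 2645 bases inside the outermost one.
Laptm5: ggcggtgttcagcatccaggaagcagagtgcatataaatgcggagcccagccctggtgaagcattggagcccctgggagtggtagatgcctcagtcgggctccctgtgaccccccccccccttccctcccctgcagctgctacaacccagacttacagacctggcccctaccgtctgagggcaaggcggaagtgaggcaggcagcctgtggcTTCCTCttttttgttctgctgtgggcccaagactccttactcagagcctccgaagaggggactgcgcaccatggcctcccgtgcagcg
Ptprc: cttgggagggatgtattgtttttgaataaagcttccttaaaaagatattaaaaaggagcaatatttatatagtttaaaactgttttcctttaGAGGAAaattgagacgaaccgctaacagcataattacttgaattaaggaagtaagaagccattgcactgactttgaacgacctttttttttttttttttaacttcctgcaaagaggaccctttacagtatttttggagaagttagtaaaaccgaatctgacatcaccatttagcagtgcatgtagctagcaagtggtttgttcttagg
Vsig4: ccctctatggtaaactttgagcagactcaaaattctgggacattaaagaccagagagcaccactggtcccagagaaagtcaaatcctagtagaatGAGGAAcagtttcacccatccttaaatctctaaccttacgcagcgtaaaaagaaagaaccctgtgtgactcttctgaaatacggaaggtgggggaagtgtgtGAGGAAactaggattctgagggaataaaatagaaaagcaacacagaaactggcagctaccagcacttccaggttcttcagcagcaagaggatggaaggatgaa
Mpeg1: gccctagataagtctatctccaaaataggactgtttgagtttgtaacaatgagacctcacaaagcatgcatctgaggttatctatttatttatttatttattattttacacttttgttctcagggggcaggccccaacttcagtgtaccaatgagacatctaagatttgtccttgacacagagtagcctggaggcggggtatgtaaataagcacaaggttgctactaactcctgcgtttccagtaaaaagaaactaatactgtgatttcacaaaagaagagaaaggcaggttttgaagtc
A match is a string of letters and not a site shown to be bound.

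The members' RNA was present in every aorta at very unequal levels. Together they made up 0.0730% to 0.129% of the scaled counts of a library, that is 730.1 to 1294 CPM. Per length of exon, the enzyme Cbr2 and lysozyme Lyz2 stood far above the rest. Cbr2 averaged 189 CPM per kb of exon in KO_HFD_LNAME, 171 in WT_HFD_LNAME and 294 in WT_CD. Lyz2 averaged 179 CPM per kb in KO_HFD_LNAME, 111 in WT_HFD_LNAME and 108 in WT_CD. Library ranges of the pair overlapped in KO_HFD_LNAME (172 to 217 for Cbr2 and 139 to 218 for Lyz2) and in WT_HFD_LNAME (118 to 201 and 66.5 to 147), and did not in WT_CD (163 to 376 and 59.6 to 150.4). Next in the order came the chemokine Pf4 and the adaptors Tyrobp and Fcer1g with Lgals3, at 14.2 to 36.2 CPM per kb in group means, where neighbours overlapped. The lineage receptor Csf1r stood at 8.41 CPM per kb in KO_HFD_LNAME, 5.30 in WT_HFD_LNAME and 6.94 in WT_CD. Adgre1, which encodes F4/80, stood at 4.78 CPM per kb in KO_HFD_LNAME, 2.94 in WT_HFD_LNAME and 2.98 in WT_CD. At the low end on chow were Siglec1, Slc15a3 and Adam8, with 0.243, 0.211 and 0.178 CPM per kb. All but 1 of the members had counts in every library. The exception was the scavenger receptor Marco, with 0 counts in WT_HFD_LNAME 2 and WT_CD 2. Cbr2 is also known from airway epithelium, Lyve1 from lymphatic endothelium and Pf4 from platelets, and counts of whole aorta do not separate these sources. Lyz2 reads can be split with its close copy Lyz1 (11.2 ± 5.09 CPM in KO_HFD_LNAME, 6.77 ± 4.69 in WT_HFD_LNAME and 5.49 ± 5.24 in WT_CD), so its level is uncertain. In whole tissue, fewer cells of a type and less RNA per cell cannot be told apart.

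**Figure D1:**
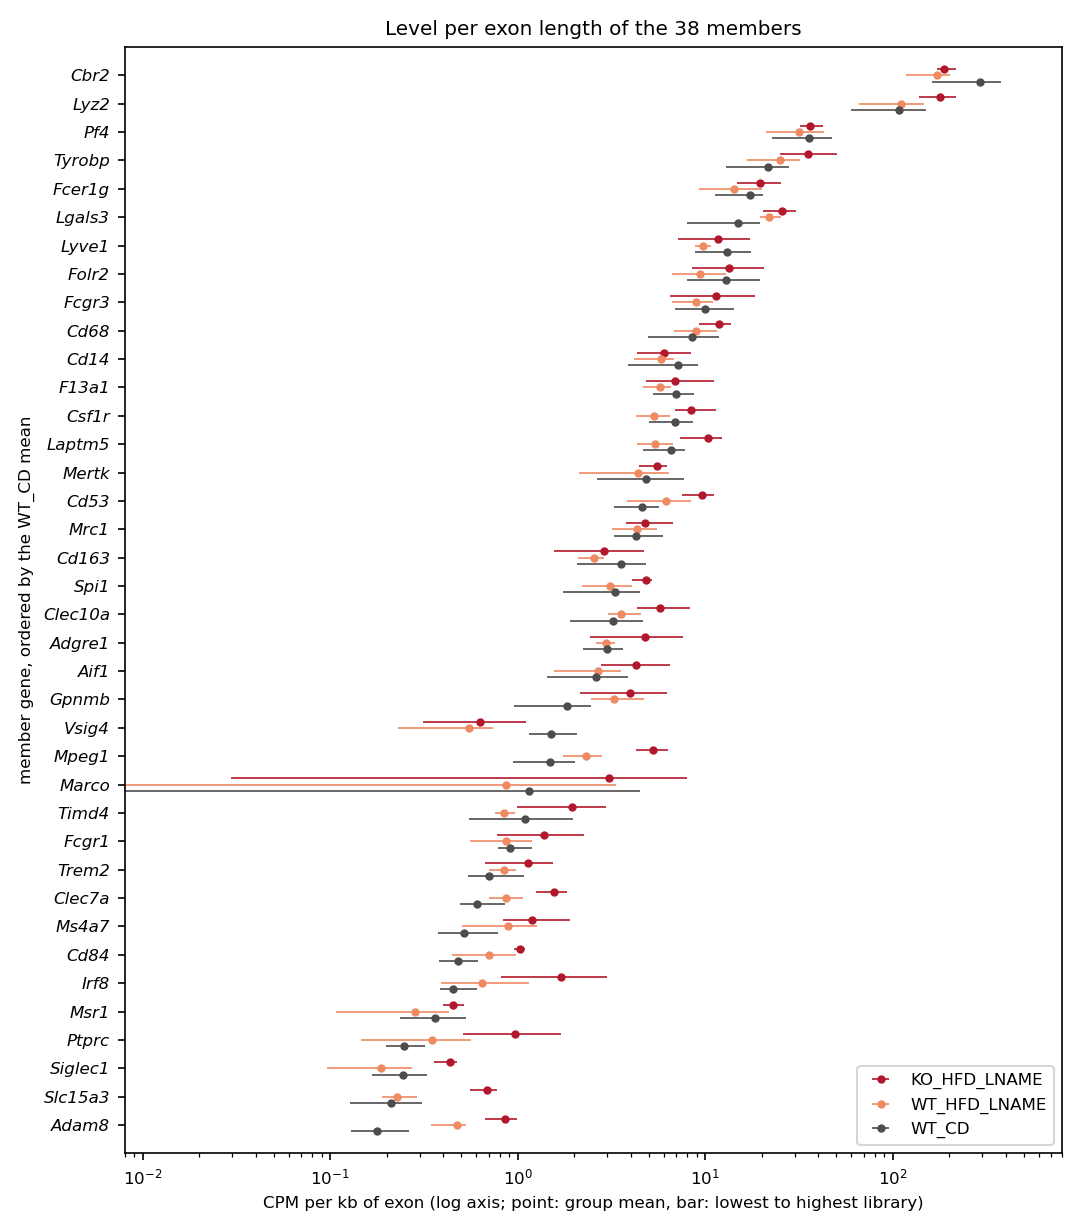
Level per exon length of the 38 members, in CPM per kb on a log axis, as group means (points) with the lowest and highest library (bars; bars that reach 0 run off the axis) for KO_HFD_LNAME (n = 3), WT_HFD_LNAME (n = 4) and WT_CD (n = 4). Genes run from the highest WT_CD mean, Cbr2, to the lowest, Adam8, and Marco has the widest bars.

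Levels differed between libraries of 1 group as well as between groups. KO_HFD_LNAME 3 had the highest level of all 11 libraries for 17 of the 38 members, KO_HFD_LNAME 1 for 9, WT_CD 3 for 5 and KO_HFD_LNAME 2 for 4; no WT_HFD_LNAME library was highest for any. The lowest level lay in WT_CD 2 for 16 members and in WT_HFD_LNAME 4 for 11. The 2 leading knockout libraries were high in different genes. KO_HFD_LNAME 3 led 6 of the 8 lineage members, 5 of the 12 resident members and 5 of the 7 Fc receptor, adaptor and pattern receptor members. KO_HFD_LNAME 1 led all 3 pan-leukocyte members, with Irf8, Mpeg1, Timd4, Clec7a, Siglec1 and Marco. The mean of log2(CPM + 0.5) over all 38 was 3.59 to 4.09 in KO_HFD_LNAME, 2.94 to 3.53 in WT_HFD_LNAME and 2.82 to 3.56 in WT_CD. The knockout libraries therefore all lay above both wild-type groups, by a narrow margin, and the wild-type groups overlapped throughout.

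**Figure D2:**
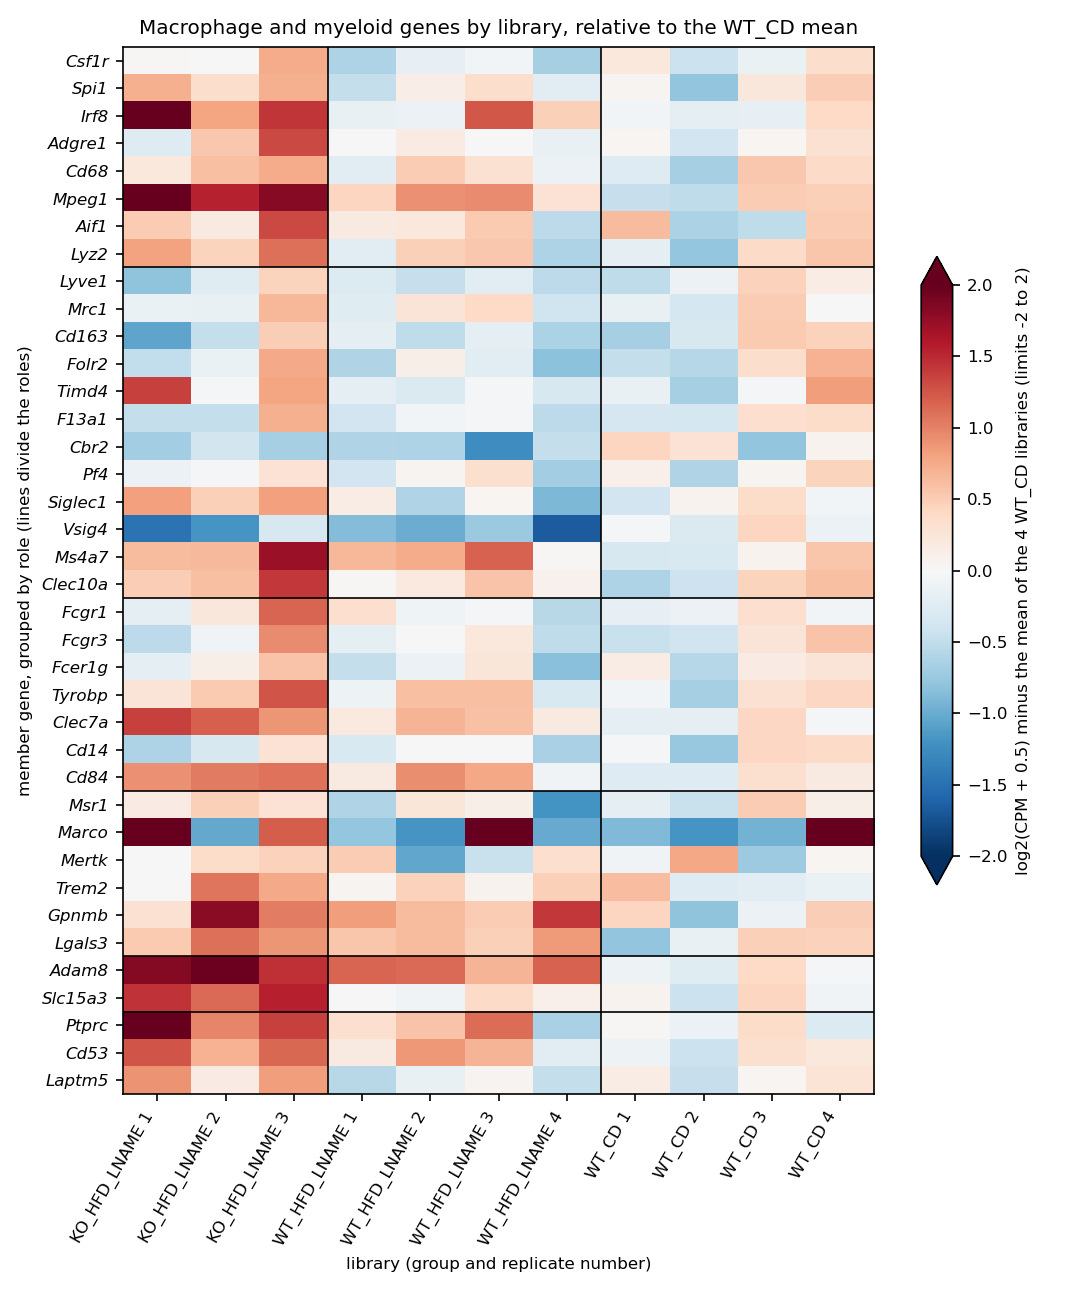
Each cell gives a member's log2(CPM + 0.5) in 1 library minus its mean over the 4 WT_CD libraries (red above, blue below, colour limits at -2 and 2), with columns ordered KO_HFD_LNAME 1 to 3, WT_HFD_LNAME 1 to 4 and WT_CD 1 to 4 and rows grouped by role. The KO_HFD_LNAME 3 column is red for most members, and KO_HFD_LNAME 1 is red for Irf8, Mpeg1, Marco and Ptprc and blue for Lyve1, Cd163 and Vsig4.

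The effect of the high-fat diet with L-NAME on wild-type aorta was read from WT_HFD_LNAME against WT_CD, called the diet comparison here although the inhibitor was part of it. Adam8, a protease of activated myeloid cells, rose, and no other member passed the test in either direction. Of the 38 members 1 was called higher (adjusted p under 0.05 over all tested genes, edgeR's quasi-likelihood test) and 0 were called lower, where 1.40% of all tested genes were called higher and 1.48% either way. At an unadjusted p under 0.05, 2 members lay higher and 2 lower, beside 9.13% and 5.98% of all genes. The median log2 fold change of the members was -0.05, against -0.03 over all genes, and 18 of 38 lay above 0, against 46.1% of all genes. Roles differed in their medians, which stood at 0.03 for the 8 lineage members, -0.40 for the 12 resident and perivascular members (9 of them below 0), -0.08 for the 7 receptors and adaptors, 0.07 for the 6 scavenging and foamy members, 0.76 for both activated members and 0.42 for the 3 pan-leukocyte members. Libraries of WT_HFD_LNAME all lay above those of WT_CD for Gpnmb and Adam8 (5.31% of all genes) and all below for Vsig4 (2.54% of all genes). With DESeq2 the same single member was called higher, beside 4.42% of all genes. In the authors' deposited table Adam8 was higher (log2 fold change 1.08, adjusted p = 0.0139) and Vsig4 lower (log2 fold change -1.06, adjusted p = 0.0289), where 3.43% and 0.404% of its genes were higher and lower. Chow mice had no inhibitor, and the labels give them no weeks beyond the 15 on diet, so diet, inhibitor and age cannot be told apart.

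The comparison of KO_HFD_LNAME with WT_HFD_LNAME asks what loss of Mpst does under that treatment, and values by genotype are log2 fold changes of this comparison. All 38 members had a fitted log2 fold change above 0, from 0.058 to 1.82, while 47.7% of all tested genes did, and no member passed the test. The members were chosen with earlier results of these data known and were measured in the same libraries. Their 38 values are therefore not independent, and the count above 0 is a description and not a test. By edgeR 0 of 38 members were called, as were 2 of 14303 genes in all (0.0140%; 0.00699% higher). At an unadjusted p under 0.05, 12 members lay higher and 0 lower, beside 3.25% and 1.87% of all genes. The median over all 38 was 0.60, against -0.01 over all genes. By role the medians were 0.68 for lineage, 0.27 for resident and perivascular, 0.50 for receptors and adaptors, 0.38 for scavenging and foamy, 1.20 for activated and 0.95 for pan-leukocyte members. For 8 members every knockout library lay above every wild-type library of this treatment (Csf1r, Mpeg1, Timd4, Siglec1, Clec7a, Adam8, Slc15a3 and Laptm5), which held for 4.41% of all genes; 0 lay wholly below, beside 3.46% of all genes. DESeq2 on the same counts called 1 member higher, Slc15a3 (adjusted p = 0.00781; 0.108% of all genes). The authors' deposited table called 3 higher, Mpeg1 (log2 fold change 0.95, adjusted p = 0.00207), Slc15a3 (log2 fold change 1.05, adjusted p = 0.00427) and Laptm5 (log2 fold change 0.75, adjusted p = 0.0446), where 0.251% of its genes were higher, and 0 lower, where 0.152% were. Fold changes in that table ran smaller, with a member median of 0.35 against 0.60 by DESeq2 here. Their sizes are therefore not directly comparable with those of edgeR. Without KO_HFD_LNAME 3 the edgeR median was 0.31 and 30 of 38 members lay above 0, while without KO_HFD_LNAME 1 or 2 it was 0.65 and 0.63, with 37 of 38 above 0 each time. Summed T and NK cell markers were also higher in all 3 knockout libraries (12.2 to 60.8 CPM, against 4.13 to 7.08 CPM in WT_HFD_LNAME), and their part in these differences was not tested.

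**Figure D3:**
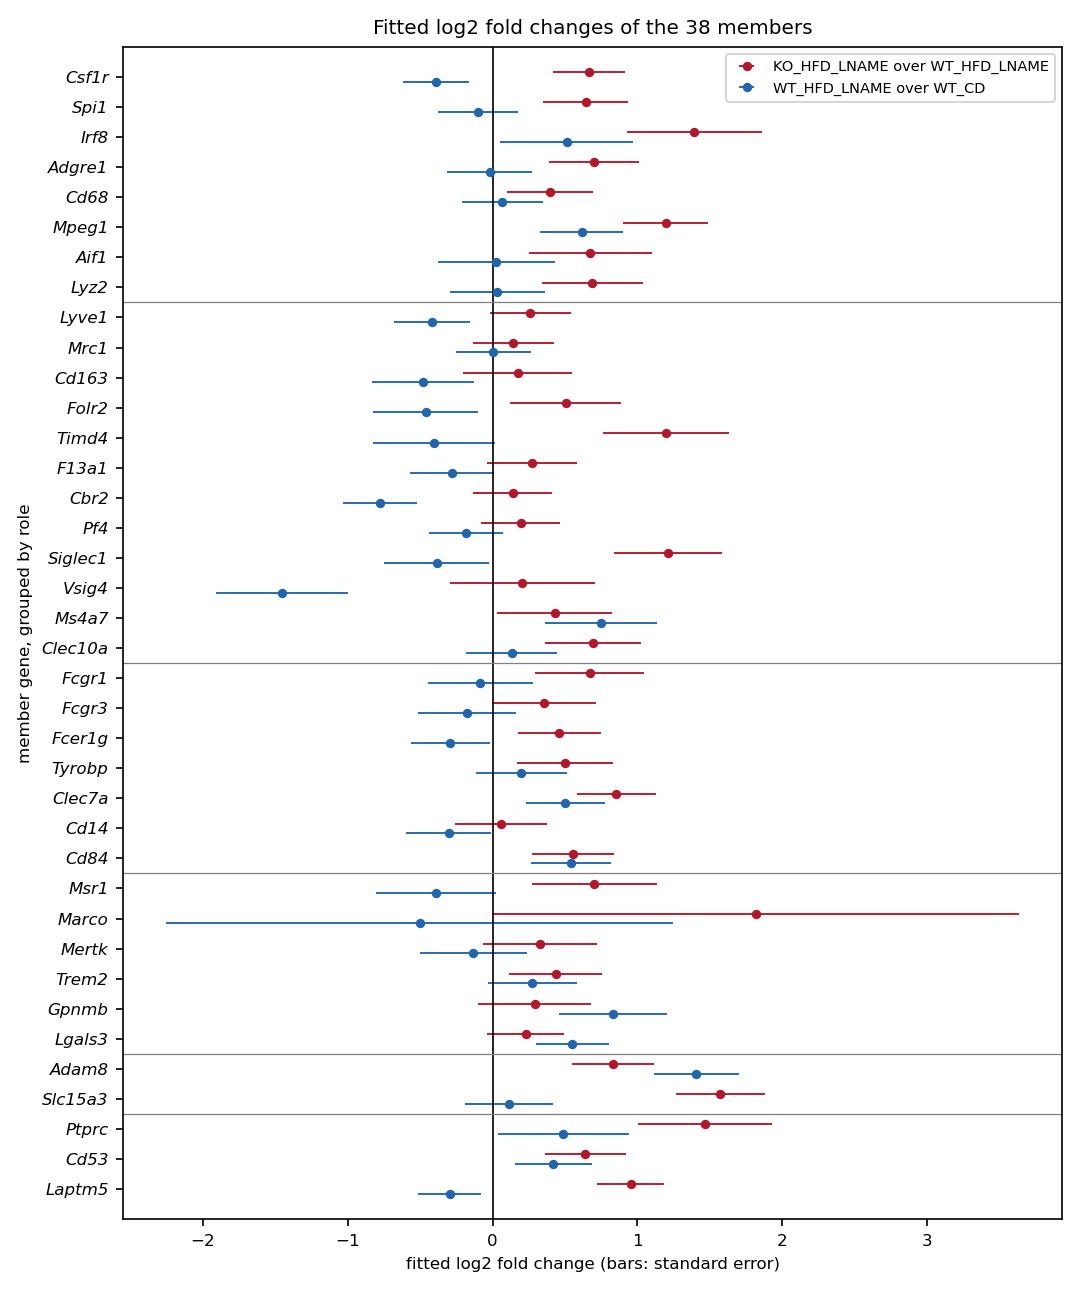
Fitted log2 fold changes with their standard errors for the 38 members, KO_HFD_LNAME over WT_HFD_LNAME in red and WT_HFD_LNAME over WT_CD in blue, grouped by role; the comparisons share the WT_HFD_LNAME libraries. In this fit of all libraries the red points lie right of 0, and the blue points lie on both sides, with Adam8 at 1.41 and Vsig4 at -1.45.

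KO_HFD_LNAME against WT_CD combines genotype, diet and inhibitor and shares its libraries with both comparisons above. Mpeg1 and Adam8 rose and no member fell, 2 of 38 called higher beside 0.287% of all genes. At an unadjusted p under 0.05, 14 members lay higher and 2 lower, beside 8.55% and 4.75% of all genes. Slc15a3 stood just above the threshold (adjusted p = 0.0519). The median was 0.69, against -0.04 over all genes, and 32 of 38 members lay above 0, against 44.3%. Knockout libraries all lay above the chow libraries for 11 members (7.86% of all genes) and all below for Vsig4 alone (5.19%). DESeq2 called 8 higher (Irf8, Mpeg1, Clec7a, Cd84, Adam8, Slc15a3, Ptprc and Cd53), beside 2.80% of all genes. With WT_CD 1 and 2 left out for their Rn45s share, edgeR called 0 members and the median was 0.39, and without KO_HFD_LNAME 3 it was 0.40.

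Among the lineage members Mpeg1 stood out. It had 27.4, 18.5 and 22.6 CPM in KO_HFD_LNAME 1 to 3, 8.34, 11.9, 12.1 and 7.53 CPM in WT_HFD_LNAME 1 to 4 and 4.30, 4.10, 8.80 and 8.61 CPM in WT_CD 1 to 4. The knockout libraries lay above all 8 wild-type libraries, and the wild-type groups overlapped. Mpeg1 rose in KO_HFD_LNAME against WT_CD (log2 fold change 1.81, SE 0.30, adjusted p = 0.0466). Against WT_HFD_LNAME it was not called by edgeR (log2 fold change 1.19, SE 0.29, adjusted p = 0.726), nor was WT_HFD_LNAME against WT_CD (log2 fold change 0.61, SE 0.29, adjusted p = 0.342). Left-out libraries ended the call against WT_CD in 9 of 11 fits, and it held without WT_HFD_LNAME 3 or without WT_CD 3. Csf1r, the receptor that keeps macrophages alive, had 40.02, 39.6 and 66.1 CPM in the knockout libraries, 25.3, 35.0, 37.7 and 24.6 in WT_HFD_LNAME and 45.3, 29.1, 35.9 and 49.98 in WT_CD. Its knockout levels exceeded those of treated wild type without overlap but not those on chow, and neither difference was called (log2 fold change 0.67, SE 0.25, adjusted p = 0.842 against WT_HFD_LNAME; -0.39 and adjusted p = 0.462 for WT_HFD_LNAME against WT_CD). Without KO_HFD_LNAME 3 its log2 fold change by genotype was 0.38. Csf1r overlaps the predicted gene Gm52352 and Mir6983, and strand use in counting is not given in the sources used here.

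Adgre1 (F4/80, an adhesion receptor of mature macrophages) had 7.85, 14.0 and 24.5 CPM in KO_HFD_LNAME, 9.39, 10.7, 9.52 and 8.49 in WT_HFD_LNAME and 9.78, 7.202, 9.74 and 11.8 in WT_CD. KO_HFD_LNAME 3 was the highest library and KO_HFD_LNAME 1 lay below all 4 treated wild-type libraries, so the groups overlapped (log2 fold change 0.70, SE 0.31, adjusted p = 0.950); it overlaps the predicted genes Gm18069 and Gm20243. Without KO_HFD_LNAME 3 the log2 fold change was 0.20. Cd68, a glycoprotein of macrophage lysosomes, had 11.7, 15.6 and 17.2 CPM in the knockout, 8.58, 14.5, 12.6 and 9.31 in the treated wild-type and 8.35, 6.20, 14.9 and 13.3 in the chow libraries, with overlap throughout (log2 fold change 0.40, SE 0.30, adjusted p = 0.950 by genotype; 0.066 and adjusted p = 0.944 for WT_HFD_LNAME against WT_CD). Of the other lineage members, Spi1 averaged 13.03 ± 1.82 CPM in KO_HFD_LNAME, 8.34 ± 2.24 in WT_HFD_LNAME and 8.90 ± 3.10 in WT_CD (SD, n = 3, 4 and 4). Irf8, a factor of the monocyte and dendritic lineages and of B cells, had 21.1, 5.72 and 9.21 CPM in the knockout libraries against 2.75 to 8.09 CPM in WT_HFD_LNAME and 2.70 to 4.27 CPM in WT_CD (log2 fold change 1.39, SE 0.47, adjusted p = 0.806 against WT_HFD_LNAME; 0.70 without KO_HFD_LNAME 1). Aif1, the cytoskeletal protein IBA1, stood at 0.67 (0.25 without KO_HFD_LNAME 3) and Lyz2 at 0.69 in the same comparison, and neither was called.

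**Figure D4:**
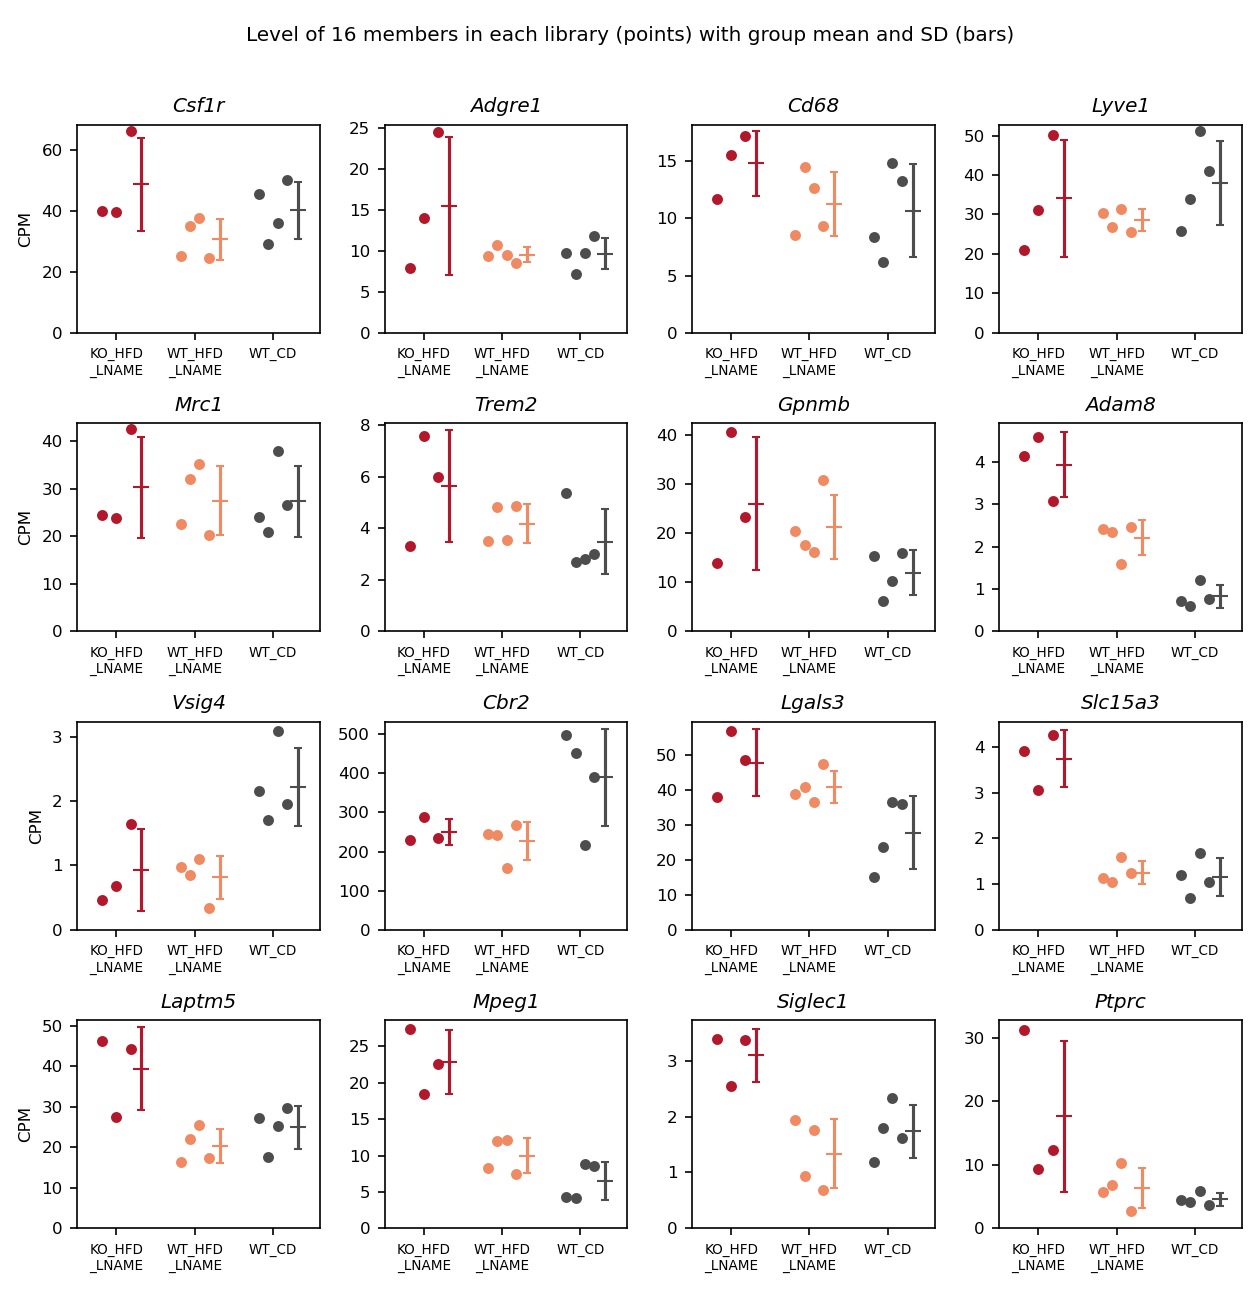
Level in CPM of 16 members in each library, with the group mean and SD beside the points, for KO_HFD_LNAME, WT_HFD_LNAME and WT_CD from left to right; every axis starts at 0. Slc15a3, Mpeg1, Laptm5, Adam8, Siglec1 and Csf1r have all 3 knockout points above the 4 WT_HFD_LNAME points, Vsig4 has all chow points above all treated ones, and Ptprc, Adgre1 and Gpnmb have 1 high knockout library.

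Among the resident and perivascular members, the scavenger receptors of adventitial macrophages overlapped between groups. Lyve1, a hyaluronan receptor, had 21.0, 31.2 and 50.3 CPM in KO_HFD_LNAME, 30.4, 26.7, 31.3 and 25.6 in WT_HFD_LNAME and 25.9, 34.0, 51.2 and 40.9 in WT_CD. The 4 treated wild-type libraries lay close together inside the knockout range. Mrc1, the mannose receptor CD206, had 24.4, 24.0 and 42.7 CPM in KO_HFD_LNAME, 22.5, 32.1, 35.2 and 20.2 in WT_HFD_LNAME and 24.0, 20.8, 38.01 and 26.6 in WT_CD, with ranges that covered each other; it overlaps Mir511. For Lyve1 and Mrc1 the log2 fold changes by genotype were 0.26 (adjusted p = 0.950) and 0.14 (adjusted p = 0.961), and both lay below 0 without KO_HFD_LNAME 3 (-0.13 and -0.18). By diet they were -0.42 (adjusted p = 0.494) and 0.0055 (adjusted p = 0.996). Lymphatic endothelial markers, a list of 6 genes of which Ccl21a had 0 counts throughout, summed to 44.2 to 51.9 CPM in KO_HFD_LNAME, 39.3 to 53.3 in WT_HFD_LNAME and 16.005 to 33.5 in WT_CD; their part in the Lyve1 level was not tested.

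Vsig4, which binds complement fragments and marks tissue-resident macrophages, had 0.462, 0.679 and 1.65 CPM in KO_HFD_LNAME, 0.972, 0.847, 1.10 and 0.342 in WT_HFD_LNAME and 2.15, 1.70, 3.09 and 1.96 in WT_CD. Every chow library lay above every library of either treated group, though with 177 counts over all libraries it was the member with the fewest. By edgeR the diet difference did not pass (log2 fold change -1.45, SE 0.46, adjusted p = 0.145) and was called in the authors' deposited table; by genotype the value was 0.21 (adjusted p = 0.965). Cbr2, an NADPH-dependent carbonyl reductase, had 229, 288 and 235 CPM in KO_HFD_LNAME, 245, 241, 157 and 267 in WT_HFD_LNAME and 499, 453, 216 and 391 in WT_CD. Of the chow libraries 3 lay above all treated ones and WT_CD 3 among them. Its diet difference (log2 fold change -0.78, SE 0.25, adjusted p = 0.162) was called, among the alternatives run, only without WT_CD 3 (log2 fold change -0.98, adjusted p = 0.0258). Cbr2 was lowest in WT_HFD_LNAME 3 and WT_CD 3, the libraries with the most adipocyte marker counts, whose part was not tested.

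Siglec1, the sialic acid receptor CD169, had 3.39, 2.55 and 3.37 CPM in KO_HFD_LNAME, 1.94, 0.941, 1.77 and 0.685 in WT_HFD_LNAME and 1.19, 1.80, 2.34 and 1.61 in WT_CD. The knockout libraries lay above all wild-type ones and the difference from WT_HFD_LNAME did not pass (log2 fold change 1.21, SE 0.37, adjusted p = 0.762; unadjusted p = 0.00781). Timd4, a receptor for phosphatidylserine on self-renewing resident macrophages, had 6.39, 2.15 and 4.12 CPM in KO_HFD_LNAME, against 1.64 to 2.107 CPM in WT_HFD_LNAME and 1.20 to 4.27 CPM in WT_CD (log2 fold change 1.20, SE 0.44, adjusted p = 0.842). Fold changes by genotype of the remaining resident members were those of Cd163, the hemoglobin scavenger receptor (0.17), the folate receptor Folr2 (0.50), the transglutaminase subunit F13a1 (0.27), Pf4 (0.19), Ms4a7 (0.43) and the lectin Clec10a (0.69; Mgl2 is a close copy of it), none called. Without KO_HFD_LNAME 3, Cd163 stood at -0.37, F13a1 at -0.24, Ms4a7 at -0.077 and Folr2 at 0.049. By diet Cd163, Folr2, F13a1, Pf4, Ms4a7 and Clec10a stood at -0.48, -0.46, -0.28, -0.18, 0.75 and 0.13. Cd163, Folr2, F13a1, Fcgr3, Clec7a and Cd84 overlap predicted genes or small RNA genes. Pf4 had 23.0, 24.7 and 30.7 CPM in KO_HFD_LNAME, 19.0, 26.0, 31.2 and 15.3 in WT_HFD_LNAME and 26.7, 16.3, 25.9 and 34.4 in WT_CD. Platelet markers (7 genes) summed to 41.8, 43.1 and 24.5 CPM in KO_HFD_LNAME, 32.2, 34.4, 41.8 and 30.9 in WT_HFD_LNAME and 71.8, 19.7, 43.0 and 39.3 in WT_CD, overlapping between groups as Pf4 did, and their part in it was not tested.

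Fc receptors and the adaptors Fcer1g and Tyrobp lay above 0 by genotype in the fit of all libraries, without a call. Fcer1g averaged 17.1 ± 4.67 CPM in KO_HFD_LNAME, 12.4 ± 4.12 in WT_HFD_LNAME and 15.1 ± 3.62 in WT_CD (SD, n = 3, 4 and 4). Tyrobp averaged 23.5 ± 9.01 CPM in KO_HFD_LNAME, 16.7 ± 5.41 in WT_HFD_LNAME and 14.5 ± 4.51 in WT_CD (SD, n = 3, 4 and 4). The activating receptors Fcgr1 and Fcgr3 stood at 0.67 and 0.36 by genotype, with KO_HFD_LNAME 3 far above the other knockout libraries (5.84 against 2.001 and 2.83 CPM for Fcgr1; 32.1 against 11.3 and 15.7 CPM for Fcgr3). Without that library Fcgr1 stood at 0.12 and Fcgr3 at -0.18. Clec7a, the beta-glucan receptor Dectin-1, had 4.85, 4.25 and 3.30 CPM in KO_HFD_LNAME, 1.86, 2.82, 2.61 and 1.85 in WT_HFD_LNAME and 1.31, 1.30, 2.25 and 1.54 in WT_CD. Its knockout libraries lay above all wild-type ones (log2 fold change 0.85, SE 0.27, adjusted p = 0.791 against WT_HFD_LNAME; 1.36 and adjusted p = 0.0740 against WT_CD). Cd84, a homophilic receptor of leukocytes, stood at 0.55 by genotype and 0.54 by diet. Cd14, the co-receptor for lipopolysaccharide, had the smallest genotype value of the 38 (0.058; -0.25 without KO_HFD_LNAME 3) and stood at -0.30 by diet.

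Among the scavenging and lipid-associated members, Gpnmb and Lgals3 had the highest fold changes on the diet, without a call. Gpnmb, a membrane glycoprotein of lipid-laden macrophages, had 13.9, 40.6 and 23.2 CPM in KO_HFD_LNAME, 20.5, 17.6, 16.1 and 30.7 in WT_HFD_LNAME and 15.3, 6.20, 10.3 and 15.96 in WT_CD. The treated wild-type libraries lay above all chow libraries by a small gap (16.09 against 15.96 CPM), and by diet the test was not passed (log2 fold change 0.83, SE 0.37, adjusted p = 0.325). By genotype Gpnmb stood at 0.29 (adjusted p = 0.953), and at -0.20 without KO_HFD_LNAME 2. Its highest libraries, KO_HFD_LNAME 2 and WT_HFD_LNAME 4, were also those with the most Schwann cell marker counts within their groups (79.3, 162 and 83.2 CPM in KO_HFD_LNAME 1 to 3 and 169.5, 132, 117 and 296 in WT_HFD_LNAME 1 to 4, over 5 genes). Of these 5 marker genes 3 were called higher on the diet, beside 1.40% of all genes. Without both WT_CD 1 and 2, 0 of all genes were called on the diet. In WT_CD 1 to 4 these markers summed to 49.4, 32.2, 81.6 and 55.4 CPM, and WT_CD 3, with the most, lay below WT_CD 1 and 4 for Gpnmb; their part was not tested. Lgals3, the lectin galectin-3, had 37.9, 56.8 and 48.5 CPM in KO_HFD_LNAME, 38.7, 40.6, 36.3 and 47.2 in WT_HFD_LNAME and 14.9, 23.5, 36.4 and 36.0 in WT_CD. WT_CD 1 and 2 were the lowest libraries, WT_CD 3 lay just inside the WT_HFD_LNAME range and WT_CD 4 just below it (log2 fold change 0.55, SE 0.25, adjusted p = 0.334).

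Trem2, a lipid-sensing receptor, had 3.31, 7.59 and 5.98 CPM in KO_HFD_LNAME, 3.48, 4.80, 3.54 and 4.86 in WT_HFD_LNAME and 5.37, 2.70, 2.81 and 3.01 in WT_CD. The groups overlapped and neither difference was called (0.27 and adjusted p = 0.736 by diet; 0.44 and adjusted p = 0.950 by genotype, with a log2 fold change of 0.15 without KO_HFD_LNAME 2). Marco, a class A scavenger receptor, was uneven in every group, with 15.5, 0.0566 and 2.13 CPM in KO_HFD_LNAME, 0.162, 0, 6.40 and 0.0685 in WT_HFD_LNAME and 0.119, 0, 0.0936 and 8.61 in WT_CD. In each group 1 library held most of it, so its genotype value of 1.82 carried a standard error of 1.82 and was -0.63 without KO_HFD_LNAME 1. Msr1, which takes up modified lipoprotein, stood at 0.70 by genotype and -0.39 by diet, and the efferocytosis kinase Mertk at 0.33 and -0.13. The Mertk ligand genes Gas6 and Pros1 were at 0.38 and 0.0047 by genotype and -0.35 and 0.058 by diet, with no call.

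The knockout libraries of both activated myeloid members lay above all wild-type libraries. Adam8 had 4.16, 4.59 and 3.09 CPM in KO_HFD_LNAME 1 to 3, 2.43, 2.35, 1.60 and 2.46 in WT_HFD_LNAME 1 to 4 and 0.716, 0.600, 1.22 and 0.770 in WT_CD 1 to 4. The 3 groups did not overlap at any point, with the knockout highest and chow lowest. A count of 3 equals 0.210 to 0.358 CPM in the chow libraries, so the chow levels of Adam8 rest on few counts. Its group means were 3.95 ± 0.769 CPM in KO_HFD_LNAME, 2.21 ± 0.410 in WT_HFD_LNAME and 0.826 ± 0.270 in WT_CD (SD, n = 3, 4 and 4). Adam8 rose on the diet (log2 fold change 1.41, SE 0.29, adjusted p = 0.0453) and in KO_HFD_LNAME against WT_CD (log2 fold change 2.24, SE 0.30, adjusted p = 0.0213), and by genotype it did not pass (log2 fold change 0.83, SE 0.28, adjusted p = 0.806). Leaving out single libraries kept its diet fold change between 1.29 and 1.65, and the call held in 2 of 11 such fits, without WT_HFD_LNAME 3 and without WT_CD 3 (adjusted p over all 11 from 0.0221 to 0.128). Against WT_CD the call held in 5 of 11, without KO_HFD_LNAME 3, each of WT_HFD_LNAME 2, 3 and 4, or WT_CD 3. Adam8 overlaps the predicted gene Gm16201 and Mir7062.

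Slc15a3, a transporter that carries peptides and histidine out of endolysosomes, had 3.92, 3.06 and 4.26 CPM in KO_HFD_LNAME, 1.13, 1.03, 1.60 and 1.23 in WT_HFD_LNAME and 1.19, 0.700, 1.69 and 1.05 in WT_CD. The knockout libraries lay far above all 8 wild-type libraries, whose groups overlapped. It had the smallest unadjusted p of the 38 members by genotype (3.2e-04) and was not called by edgeR (log2 fold change 1.57, SE 0.31, adjusted p = 0.656), whereas DESeq2 and the authors' deposited table did call it. The log2 fold change stayed between 1.47 and 1.71 without each library in turn. Slc15a3 overlaps Tmem132a, whose own level was 47.9 ± 7.18 CPM in KO_HFD_LNAME, 38.7 ± 9.22 in WT_HFD_LNAME and 39.1 ± 8.07 in WT_CD (SD, n = 3, 4 and 4; log2 fold change 0.31 by genotype, not called).

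The pan-leukocyte members were highest in KO_HFD_LNAME 1. Ptprc had 31.3, 9.34 and 12.4 CPM in KO_HFD_LNAME, 5.75, 6.87, 10.3 and 2.67 in WT_HFD_LNAME and 4.53, 4.10, 5.90 and 3.64 in WT_CD. KO_HFD_LNAME 2 lay inside the treated wild-type range (log2 fold change 1.47, SE 0.46, adjusted p = 0.767), and without KO_HFD_LNAME 1 the log2 fold change was 0.76. Laptm5 had 46.3, 27.6 and 44.3 CPM in KO_HFD_LNAME, 16.4, 22.02, 25.5 and 17.4 in WT_HFD_LNAME and 27.3, 17.6, 25.2 and 29.7 in WT_CD, where KO_HFD_LNAME exceeded WT_HFD_LNAME without overlap and the difference was not called by edgeR (log2 fold change 0.95, SE 0.23, adjusted p = 0.726; unadjusted p = 0.00165; the predicted gene Gm38599 overlaps it). Cd53, a tetraspanin of leukocytes, averaged 16.8 ± 3.31 CPM in KO_HFD_LNAME, 10.8 ± 3.65 in WT_HFD_LNAME and 8.02 ± 1.90 in WT_CD (SD, n = 3, 4 and 4; 0.64 by genotype, not called).

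These members are not confined to macrophages, and markers of other leukocytes were counted beside them. The 11 T and NK cell markers, of which 8 could be tested, summed to 60.8, 12.2 and 15.9 CPM in KO_HFD_LNAME 1 to 3, against 4.13 to 7.08 in WT_HFD_LNAME and 2.03 to 4.21 in WT_CD. Every tested one lay above 0 by genotype (median 2.79, beside 47.7% of all genes above 0). All 8 lay higher at an unadjusted p under 0.05, beside 3.25% of all genes, and 0 were called. Lck and Cd8a, 2 of the 8, rose in KO_HFD_LNAME against WT_CD, where 0.287% of all genes were called higher (adjusted p = 0.0304 and 0.0405; Lck overlaps Mir8119). The 9 B cell markers summed to 83.4, 4.64 and 8.80 CPM in KO_HFD_LNAME, 2.02 to 19.2 in WT_HFD_LNAME and 1.12 to 5.01 in WT_CD. Dendritic markers (7 genes) reached 27.8 CPM in KO_HFD_LNAME 1, against 5.20 to 10.3 CPM in the other 10 libraries. Mast cell markers (8 genes) summed to 58.9, 76.0 and 122 CPM in KO_HFD_LNAME, 27.3 to 63.6 in WT_HFD_LNAME and 13.005 to 82.7 in WT_CD, highest in KO_HFD_LNAME 3. Mesothelial markers (5 genes) were likewise highest in KO_HFD_LNAME 3, at 154 CPM. The part of these other cells in the members' levels was not tested.

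**Figure D5:**
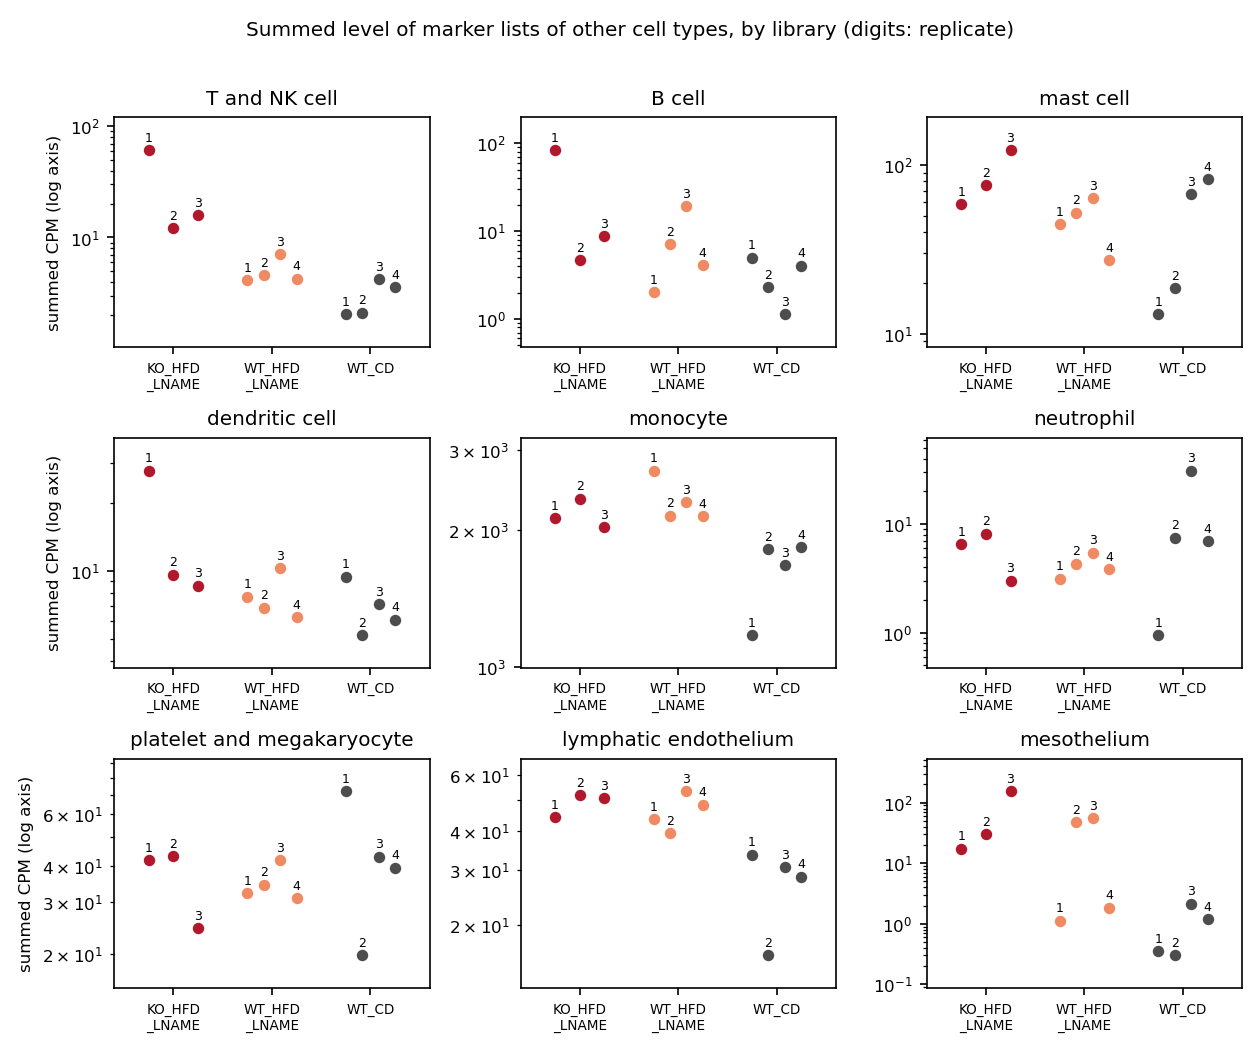
Summed CPM (log axis) of marker lists of 9 other cell types in each library, KO_HFD_LNAME, WT_HFD_LNAME and WT_CD from left to right, with replicate numbers above the points. KO_HFD_LNAME 1 stands highest for T and NK, B and dendritic cell markers, and KO_HFD_LNAME 3 for mast cell and mesothelial markers.

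Other genes of the macrophage pathways, 91 in 6 lists of which 79 could be tested, showed 2 called higher on the diet (1.40% of all genes), 0 by genotype (0.00699%) and 1 in KO_HFD_LNAME against WT_CD (0.287%). The integrin Itgax, which encodes CD11c of dendritic cells and lipid-laden macrophages, rose on the diet, with 3.08, 4.19 and 1.99 CPM in KO_HFD_LNAME, 1.94, 1.03, 1.35 and 0.959 in WT_HFD_LNAME and 0.119, 0.400, 0.281 and 0.350 in WT_CD (log2 fold change 2.12, SE 0.43, adjusted p = 0.0411), and in KO_HFD_LNAME against WT_CD (log2 fold change 3.35, SE 0.43, adjusted p = 0.0161). Its levels in both treated groups lay above all chow libraries. The chow levels of Itgax lay near that of a count of 3 (0.210 to 0.358 CPM in WT_CD), so its fold changes against chow rest on very few counts there. Spp1, the matrix protein osteopontin of foamy macrophages and other cells, rose on the diet, with 3.92, 7.93 and 10.7 CPM in KO_HFD_LNAME, 17.7, 14.8, 4.80 and 13.01 in WT_HFD_LNAME and 2.98, 1.40, 2.53 and 1.19 in WT_CD (log2 fold change 2.65, SE 0.47, adjusted p = 0.0302). It was not called in KO_HFD_LNAME against WT_CD (log2 fold change 1.92, SE 0.49, adjusted p = 0.125). Neither diet call, of Itgax or of Spp1, held without both WT_CD 1 and 2, where 0 of all genes were called. In the list of the 2 Csf1r ligands with other growth factors and receptors, 4 of 10 tested genes lay above 0 on the diet and 7 of 10 by genotype. The list includes Csf2rb (chr15:78325800-78351001), which lies near the deleted gene Mpst (chr15:78406712-78414015). Whether this closeness matters for its genotype value was not tested. Csf1 was at -0.18 by diet and 0.14 by genotype, and Il34 had the smallest p of that list by diet (log2 fold change 1.23, SE 0.40, adjusted p = 0.163; -0.92 by genotype; it overlaps Gm15894, Gm15895 and Gm39250). The receptor Csf2ra had the smallest p by genotype (log2 fold change 0.61, SE 0.24, adjusted p = 0.920).

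In each list that follows, the share above 0 is read beside 47.7% of all genes by genotype and 46.1% by diet. Signalling kinases and adaptors of leukocytes had 14 of 14 fitted values above 0 by genotype with a median of 0.91, 11 of them higher at an unadjusted p under 0.05 (3.25% of all genes) and 0 called. Smallest p by genotype had the Src-family kinase Fgr (log2 fold change 2.07, SE 0.46, adjusted p = 0.726), and by diet Lyn (log2 fold change 0.46, SE 0.22, adjusted p = 0.367); Fgr overlaps Gm36599 and Lyn overlaps 6330407A03Rik, Gm11805 and Gm42250. Many of these genes serve lymphocytes too, and 11 of the 14 were highest in KO_HFD_LNAME 1. Pattern and inhibitory receptors lay above 0 in 14 of 14 (median 0.40), with Pirb, which shares close sequence with the Pira genes, first (log2 fold change 1.25, SE 0.31, adjusted p = 0.726). Transcription factors did so in 7 of 13 (median 0.03), where Irf5 had the smallest p (log2 fold change 0.72, SE 0.22, adjusted p = 0.762; it overlaps Tnpo3), and by diet Irf4 (log2 fold change -1.20, SE 0.61, adjusted p = 0.380). Lysosome and lipid genes, which many cell types use, lay above 0 in 7 of 19 by genotype (median -0.10) and 14 of 19 by diet (median 0.35), with the protease Ctss first by genotype (log2 fold change 0.76, SE 0.29, adjusted p = 0.872; it overlaps Hmgb1-ps5). Of 16 inflammatory and alternative activation products 9 could be tested, and the smallest p belonged to Il1b by genotype (log2 fold change 1.71, SE 0.65, adjusted p = 0.865; it overlaps Il1bos) and to the inducible nitric oxide synthase Nos2 by diet (log2 fold change 2.45, SE 0.70, adjusted p = 0.113).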

How the data were processed

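Poly(A) or ribosomal depletion is not named in the sources used here; libraries were made from total RNA of mouse aorta with an Illumina kit, per the labels' protocols. Reads were trimmed with Trimmomatic 0.39, aligned with HISAT2 2.2.1 to GRCm38 (mm10) and counted with featureCounts 2.0.3, per the submitters' processing notes; the strand setting is not given there. The authors deposited raw counts per gene for 11 libraries. They also deposited 2 tables of DESeq2 results (log2 fold changes, standard errors, mean normalized signal, Wald score, p-values), whose model is not stated in the file headers. These carry the label 2.11.40.7 with a Galaxy suffix, so the version of the DESeq2 package itself is uncertain.

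From the counts, edgeR 4.0.16 (R 4.3.3, limma 3.58.1) gave TMM factors, the default filter by expression kept 14303 of 27179 genes, and a robust quasi-likelihood fit of all 11 libraries in 3 groups was tested for 3 comparisons, two-sided, with Benjamini-Hochberg adjustment over all tested genes; called means an adjusted p under 0.05. A run on simulated counts checked the fit. "By genotype" means KO_HFD_LNAME over WT_HFD_LNAME, and "by diet" WT_HFD_LNAME over WT_CD. Alternatives were DESeq2 1.42.0, RLE factors, TMM without Rn45s and mitochondrial genes, no filter, fits of the 2 groups compared, a replicate block, and left-out libraries. CPM per kb used the union of exons in GENCODE M21. A count of 3 equals 0.170 to 0.358 CPM, depending on the scaled depth of the library. Figures used Python 3.11.15.

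The members and lists were chosen with earlier results of these data known. Values in every library are given for Csf1r, Adgre1, Cd68, Lyve1, Mrc1, Trem2, Gpnmb, the 5 members of smallest p in each of the 2 main comparisons and called members; of other lists, the called genes or the gene of smallest p are named, except that some marker genes are not reported here. Irf8, Timd4, Clec7a, Marco, Pf4, Fcgr1, Fcgr3 and the Mertk ligands were added after their values were seen. No pair of libraries within a group held the same values. Correlations of deviations between same-numbered libraries ran from -0.23 to 0.59. The highest joined WT_HFD_LNAME 3 and WT_CD 3, the libraries with the most adipocyte marker counts. Such values cannot decide whether the numbers are pairs, because libraries also differ in tissue make-up. The main fit did not take the numbers as pairs.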

Additional observations from a re-analysis of the deposited data

Results flagged for a closer look

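Sets of 4 wild-type library values were looked at for some of the members given by library, 34 sets in all. Of these, 2 held a library far from the other 3 by Dixon's criterion on the gap as a share of the range, and chance alone gives about 1 in 20. Marco, which was uneven in every group as given above, is not among the 2. Trem2, the lipid-sensing receptor, had 5.37 CPM in WT_CD 1, against 2.70 to 3.01 CPM in the other chow libraries. Adam8 had 1.60 CPM in WT_HFD_LNAME 3, against 2.35 to 2.46 CPM in the other libraries of that group, and its rise on the diet was called with and without that library.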

How the results depend on the processing

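Of the diet comparison's 1 member called higher, 0 remained without the filter on low counts, in a fit of only the 2 groups, with a replicate block, without both WT_CD 1 and 2, or without both WT_HFD_LNAME 3 and 4; single left-out libraries gave 0 to 1 higher and 0 to 1 lower. By genotype DESeq2 called 1 member, and left-out libraries put the median between 0.31 and 0.69. In KO_HFD_LNAME against WT_CD, where 2 were called, DESeq2 called 8, the fit of 2 groups 0, the replicate block 0, the fit without both WT_CD 1 and 2 gave 0 (median 0.39) and that without both WT_HFD_LNAME 3 and 4 gave 1, with 0 to 4 and medians of 0.40 to 0.76 over left-out libraries. Over all genes the diet calls numbered 212, and 868 with DESeq2, 138 without the filter, 31 in the fit of 2 groups, 42 with the replicate block, 59 without both WT_HFD_LNAME 3 and 4, 0 without both WT_CD 1 and 2 and 2 to 521 over left-out libraries. By genotype they were 2, and 38 with DESeq2; against WT_CD 45, and 559 with DESeq2, 3 in the fit of 2 groups and 13 with the block. The cause was not tested. With the replicate block the genotype median was 0.51 and Vsig4 stood at -0.016 by genotype. Uncalled fold changes that crossed 0 were, by diet among members given by library, Adgre1 (0.058 without both WT_HFD_LNAME 3 and 4; -0.14 to 0.092 over left-out libraries), Cd68 (-0.33 without both WT_CD 1 and 2; -0.12 to 0.26), Mrc1 (-0.23 and -0.00466 without those pairs; -0.14 to 0.21) and Slc15a3 (-0.11 and -0.090; -0.060 to 0.35). By genotype they were, over left-out libraries, Lyve1 (-0.13 to 0.50), Mrc1 (-0.18 to 0.29), Gpnmb (-0.20 to 0.57), Vsig4 (-0.48 to 0.50) and Cbr2 (-0.00322 to 0.22); others below 0 were Cd163 (-0.37), F13a1 (-0.24), Fcgr3 (-0.18), Ms4a7 (-0.077) and Cd14 (-0.25) without KO_HFD_LNAME 3 and Marco (-0.63) without KO_HFD_LNAME 1. RLE factors and TMM without Rn45s and mitochondrial genes gave a diet count of 1 and a genotype count of 0, and against WT_CD 2 and 3.

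Members of few counts, such as Vsig4 with 177 in all libraries, have wide errors, and with 3 or 4 libraries a group a difference that was not called is not shown to be absent. Counts of whole aorta do not separate macrophages from the other cells that express a member.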

Other observations

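Beside the macrophage genes, marker lists of other cell types were measured in the same fits; values in parentheses are log2 fold changes. On the diet, where 1.40% of all genes were called higher, the myelin gene Mbp of Schwann cells rose (2.50, adjusted p = 0.0475). The lymphatic gene Reln rose (1.996, adjusted p = 0.0247), as did the endothelial sialomucin Emcn (2.02, adjusted p = 0.0473) and the adipocyte hormone Lep (3.02, adjusted p = 0.0371). None of these diet calls held without both WT_CD 1 and 2, where 0 of all genes were called. Adipocyte markers summed to 656 to 13867 CPM within WT_CD and to 3088 to 15342 CPM in WT_HFD_LNAME, and their part in the Lep level was not tested. Smallest in p without a call were Cd79b among B cell genes (1.48), Lck among T and NK cell genes (1.39), Tnnt2 among cardiac genes (3.06), Cd209a among dendritic cell genes (1.16), Alas2 among erythroid genes (-2.55), Pdgfra among fibroblast genes (-0.39), Hdc among mast cell genes (0.81), Upk3b among mesothelial genes (6.03), Fn1 among monocyte genes (0.50), S100a9 among neutrophil genes (-1.69), Gp1bb among platelet genes (-0.48) and Myh11 among smooth muscle genes (-0.55).

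By genotype 0 marker genes were called by edgeR. At an unadjusted p under 0.05, higher levels were found for all 8 tested T and NK cell genes and 2 of 9 monocyte genes. The same held for 1 of 3 dendritic cell genes and 1 fibroblast gene, beside 3.25% of all genes. At that limit 6 cardiac genes lay lower, beside 1.87% of all genes. Cardiac markers summed to 39.9 and 111 CPM in WT_HFD_LNAME 1 and 2. In WT_HFD_LNAME 3 and 4 they summed to 822 and 2193 CPM, and the part of these 2 libraries was not tested. Smallest in p were Cd8a (3.4997) for T and NK cells, Pax5 (1.73) for B cells, Siglech (1.36) for dendritic cells, Tpsb2 (1.11) for mast cells, S100a9 (0.44) for neutrophils, Gp1bb (0.40) for platelets, Mb (-5.64) for cardiac muscle, Lep (1.10) for adipocytes, Emcn (-0.52) for blood endothelium, Reln (-0.51) for lymphatic endothelium, Alas2 (0.82) for erythroid cells, Upk3b (1.54) for mesothelium, Pdgfra (0.42) for fibroblasts and Smtn (0.37) for smooth muscle. The monocyte list as a whole summed to 2027 to 2344 CPM in KO_HFD_LNAME, 2146 to 2699 in WT_HFD_LNAME and 1177 to 1837 in WT_CD, mostly Fn1 and Hp, while its mean log2(CPM + 0.5), which weighs genes equally, was 3.85 to 4.36 in KO_HFD_LNAME, 3.29 to 4.09 in WT_HFD_LNAME and 2.79 to 3.80 in WT_CD. The neutrophil list summed to 3.02 to 8.15 CPM in KO_HFD_LNAME, 3.16 to 5.48 in WT_HFD_LNAME and 0.954 to 31.0 in WT_CD.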
